A study of Mus musculus with 109 samples.

Results

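The Csmd1 region is the 2.5-Mb stretch of mouse chromosome 8 from 15.5 Mb to 18 Mb of the mm9 build, and it was described here through the HindIII sites that 4C-seq baits captured in it. Its members are the 864 HindIII sites whose position falls between those limits, of 39480 sites on chromosome 8 and 823352 in the whole count table. In 4C-seq, crosslinked chromatin is cut and ligated, and the fragments joined to one chosen site, the bait, are sequenced, so a read at a site records a ligation between that site and the bait. The limits were chosen by long-range contact profiles of these same libraries, observed over expected for distance, in which bins of the region stood high for the baits B7 and B53. Levels by bait are therefore given as a description with no test.

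The cells were C127, a mouse mammary tumour line. Libraries were labelled G0 (serum starvation for 5 days), G2 (15 h after release from a nocodazole block), mitosis (at the end of a 4 h block), and 30 min, 1, 2, 3 and 4 h after release from mitosis. No group carries a genetic change, and all were crosslinked with formaldehyde. Per bait there were 2 G0 libraries, 1 each for G2, 2 h, 3 h, 4 h and, for 4 baits, mitosis, and 2 each for 30 min and 1 h. The 6 baits on chromosome 8 gave 64 libraries from 70 columns, because the 2 technical replicates labelled 2 h were summed. The other 39 columns were left out, since as a set they did not show most of their reads beside the bait their labels name.

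The 70 columns held 266006 to 8826711 reads, and in all 70 the bait on chromosome 8 with most reads within 100 kb was the labelled one. The libraries labelled 30 min replicate 2, 3 h and 4 h captured the fewest sites beyond 2 Mb from the bait at every bait, 682 to 4825 sites against 2993 to 23806 in the others. Sites on other chromosomes were used to look for libraries that share captures. At every bait, of the sites of whichever library had fewer, 64.9% to 96.7% were common to 1 h replicate 2 and 2 h technical replicate 1, which is 5.48 to 25.3 times chance. The values of 1 h replicate 2 and of 2 h thus rest partly on the same captured sites. Of the G0 libraries, B53 replicate 1 shared 50.7% and B118 replicate 2 shared 81.5% of these sites with the library labelled 1 h replicate 2, and B26 replicate 1 shared 29.4%.

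Csmd1 (CUB and Sushi multiple domains 1) encodes a very large membrane protein built of repeated CUB and complement-control domains, is known for expression in the nervous system and acts as an inhibitor of complement. Very long genes of this kind often lie alone in AT-rich, gene-poor chromatin, which in many cell types replicates late and sits in the inactive compartment, where loci tend to contact other inactive loci. No expression or replication timing was measured in the counts used here.

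In the GENCODE annotation of mm9, Csmd1 (ENSMUSG00000060924.7) runs on the minus strand, chr8:15892537-17535586, and covers 65.7% of the region. At 1.64 Mb it was the 2nd longest of the 1082 protein-coding genes annotated on the chromosome, with 9 transcripts of up to 72 exons. It was the only protein-coding gene of the region. The other annotated genes lie within its span: the miRNA gene AC122323.1 (chr8:16168757-16168838) on the same strand, and on the opposite strand the processed transcripts Gm16346 (chr8:16226003-16232305) and Gm16347 (chr8:16433175-16437040) and the small nucleolar RNA SNORA17 (chr8:16852168-16852287). The nearest protein-coding genes outside were Myom2, which encodes a muscle M-band protein, and Mcph1, which encodes a protein of chromosome condensation. Myom2 lies 366 kb from the edge of the region toward the centromere, and Mcph1 lies 595 kb from the opposite edge. The region had a GC content of 40.3%, against a median of 42.2% over the 500-kb bins of chromosome 8, and 158 to 184 HindIII sites per 500 kb, against a median of 160.

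The 6 baits are shown by their primer sequences on mm9, which end in the HindIII site (capitals) from which each library was read.
B7, chr8:7223950-7223970, plus strand: tattaggacagacagAAGCTT
B26, chr8:26774313-26774332, plus strand: ttgagtttgacgccAAGCTT
B44, chr8:44417335-44417354, plus strand: ggtcatccctttagAAGCTT
B53, chr8:52961959-52961978, plus strand: aaacatgtttggccAAGCTT
B87, chr8:87434064-87434081, plus strand: gggcggagatggAAGCTT
B118, chr8:118459309-118459328, plus strand: cctcatacagctggAAGCTT
B7 lies 8.28 Mb from the nearest edge of the region on the centromeric side. The other baits lie beyond the opposite edge, at 8.77 Mb (B26), 26.4 Mb (B44), 35.0 Mb (B53), 69.4 Mb (B87) and 100.5 Mb (B118). B7 and B53 have no protein-coding gene within 500 kb and a GC content of 37.3% and 36.0% in the 500 kb around them. B44 has 8 such genes and 40.6% GC, and B118 has 1 and 43.4%. B26, inside Whsc1l1, which encodes a histone methyltransferase, has 19 and 44.9%, and B87, inside Dnase2a, which encodes a lysosomal nuclease, has 38 and 49.6%.

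The 5 sites of the region captured in most libraries are shown with 30 bases on each side of the HindIII site (capitals), plus strand of mm9, since no other site of the region was captured in more libraries.
Site 1, chr8:17977952-17978017, intergenic: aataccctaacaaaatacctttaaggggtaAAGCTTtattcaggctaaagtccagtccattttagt
Site 2, chr8:15779876-15779941, intergenic: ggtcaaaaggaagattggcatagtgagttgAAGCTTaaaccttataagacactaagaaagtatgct
Site 3, chr8:15671571-15671636, intergenic: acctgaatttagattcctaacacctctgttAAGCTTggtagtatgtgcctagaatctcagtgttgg
Site 4, chr8:16354401-16354466, Csmd1 intron: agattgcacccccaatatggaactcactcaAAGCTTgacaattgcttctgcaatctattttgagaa
Site 5, chr8:16717634-16717699, Csmd1 intron: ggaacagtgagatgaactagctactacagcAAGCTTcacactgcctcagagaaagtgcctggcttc
Sites 1, 2 and 3 were each captured in 37 of 64 libraries, site 4 in 36 and site 5 in 35. All 5 have a DpnII site, the second cut, on both sides, at 64 to 197 bp on the nearer side, and both of their 30-base ends, read outward from the HindIII site, occur once among all HindIII ends of mm9.

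Of the 864 sites, 744 (86.1%) were captured, with 1 read or more, in at least 1 library. A site was captured in a median of 24 libraries and at most 37. There were 76 sites captured in at least 32 libraries and 206 captured by all 6 baits. In sparse libraries 1 site could hold much of the region's reads: 65.2% at B87 in 4 h, 48.5% at B87 in 3 h, 40.9% at B118 in 3 h, 28.3% at B87 in 30 min replicate 2, 26.5% at B26 in 4 h and 24.8% at B7 in 4 h.

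Site 5, in a Csmd1 intron, also held the most reads of the region at 3 baits: 4532 reads at B7, 3341 at B53 and 704 at B118. These were 0.463%, 0.768% and 2.30% of all reads of the region at those baits. The site with the most reads at B26 started at 17866361 (3142 reads, 0.771%), and that at B44 at 17608718 (603 reads, 0.719%), both intergenic. At B87 it was an intronic site of Csmd1 starting at 17003794 with 436 reads in 2 libraries, and 93.1% of them came from G0 replicate 1.

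Capture went with the uniqueness of a site's ends. Of the 769 sites whose 30-base ends were both unique, 95.2% were captured, against 31.6% of the 19 sites with 1 unique end and 7.89% of the 76 with none. Of the 120 sites never captured, 70 had no unique end, 13 had 1 and 37 had 2. The 82 sites whose shortest DpnII distance was 500 bp or more were captured in a median of 4 libraries, against 25 for 590 sites at 50 to 499 bp and 23 for 174 sites under 50 bp. The remaining 18 sites have no DpnII site on either side within the fragment and were captured in a median of 9. The sources used here do not give the authors' alignment filters.

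Along the region, 1 tile stood low at 4 baits. Counted in 100-kb tiles over all site and library pairs, B7 captured 28.0% to 60.1% (median 51.4%), B26 23.2% to 51.0% (41.3%), B44 19.1% to 45.5% (36.1%), B53 19.9% to 45.5% (37.2%), B87 2.67% to 9.0% (6.36%) and B118 5.25% to 12.3% (8.82%). The lowest tile at B7, B26, B44 and B53 was the same one, at positions 15700001 to 15800000, downstream of the 3′ end of Csmd1. It holds 38 HindIII sites, of which 17 were never captured and 13 had no unique end. It was not the lowest at B87 and B118, where it stood at 3.95% and 5.53%.

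**Figure D1:**
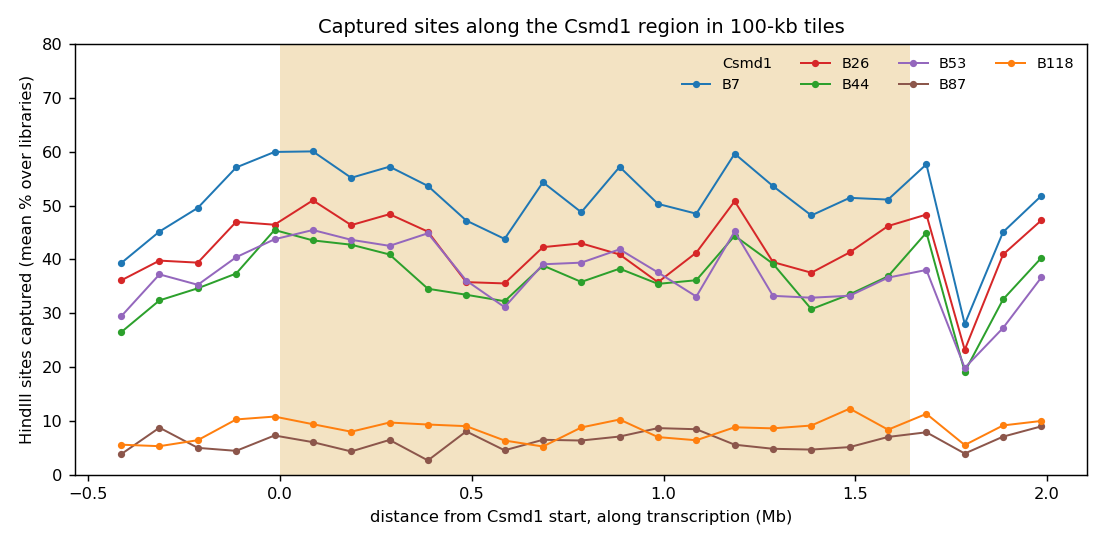
Percent of site and library pairs captured (y axis) in 100-kb tiles of the Csmd1 region against the distance of the tile from the Csmd1 start in Mb (x axis), 1 line per bait; shading marks Csmd1. The lines of B7, B26, B44 and B53 dip together in the tile 1.79 Mb from the start, to 28.0%, 23.2%, 19.1% and 19.9%, and those of B87 and B118 lie under all others.

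The mean share of sites captured was higher in the gene body than in both flanks at B7, B26, B44 and B53. At B87 and B118 it was highest in the 3′ flank. The SDs given are over libraries of differing depth, and differences within libraries were not computed. At B7, 52.7% ± 29.5 of the 567 sites within Csmd1 were captured per library, against 45.3% ± 26.4 of 128 sites in the 3′ flank and 49.5% ± 28.4 of 169 sites in the 5′ flank (SD, n = 11 each). At B53 the shares were 38.4% ± 26.7 in the gene body, 30.7% ± 22.8 in the 3′ flank and 36.6% ± 26.6 in the 5′ flank (SD, n = 11 each). At B87 they were 6.01% ± 5.34, 6.95% ± 7.55 and 5.86% ± 5.23 (SD, n = 10 each). The 3′ flank includes the tile with many non-unique ends. Of the gene body sites, 562 are intronic and 5 exonic.

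Libraries of one bait differed widely in how much of the region they captured. B7 captured between 39 sites (4 h) and 693 sites (mitosis) of the 864, with a median of 611. B26 captured 11 (3 h and 4 h) to 632 (mitosis), median 457, B44 56 to 547, median 385, and B53 47 to 651, median 255. B87 captured 3 to 153, median 46, and B118 17 to 191, median 59.5. Of the sites captured beyond 2 Mb from the bait, the region held 6.67% in the B7 library of mitosis (exact 95% binomial interval 6.20% to 7.17%, 10391 sites) and 5.69% in that of 4 h (4.07% to 7.69%, 686 sites). These intervals cover counting error only, since reads carry no molecular identifiers.

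To remove depth and distance, captured sites beyond 2 Mb were drawn at random down to one common number per bait, and the number in the region was divided by that expected from a smooth curve of capture against distance. The result is given as log2 observed over expected, where 0 is the level of the curve and 1 is a doubling. The bins of the region contribute to the curve, which can draw values toward 0. In simulated profiles with no change put in, the measure returned means of -0.06 to 0.13 over the baits, so small levels can arise without any change. With 1 put in it returned 0.79 to 0.85, and with -1 put in it returned -1.13 to -0.71.

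B7, B53 and B44 stood above the curve in the region, and B26, B87 and B118 below it. Over its libraries the mean was 0.37 ± 0.25 at B7 (SD, n = 11), above 0 in 11 of 11. It was 0.32 ± 0.50 at B53, above 0 in 8 of 11, and 0.23 ± 0.18 at B44, above 0 in 10 of 11 (SD, n = 11 each). It was -0.59 ± 0.86 at B26, above 0 in 2 of 11, -0.82 ± 0.53 at B87, above 0 in 0 of 10, and -0.16 ± 0.38 at B118, above 0 in 3 of 10. Among all windows of 5 adjacent bins, the region ranked 2 of 226 at B7, 19 of 226 at B44, 19 of 227 at B53, 164 of 226 at B118, 172 of 226 at B87 and 186 of 226 at B26. These windows overlap. The region was chosen for high bins at B7 and B53, so its ranks there are no test.

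At every bait these levels moved toward 0 without the 3 libraries with the fewest far sites. Without 30 min replicate 2, 3 h and 4 h, the mean was -0.11 ± 0.15 at B26, 0.14 ± 0.13 at B44 and 0.11 ± 0.41 at B53 (SD, n = 8 each), and -0.04 ± 0.36 at B118 (SD, n = 7). At B7 it was then 0.30 ± 0.24, above 0 in 8 of 8. At B87 it was -0.58 ± 0.40, against -0.82 with them, and still above 0 in 0 of 7. B87 has few sites behind it, 1.2 to 5.3 sites of the region per library after the draw to a common number. On all captured sites without that draw, its library of G0 replicate 1 stood above the curve, at 0.43.

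Counted in reads, B7 stood at 0.70 ± 0.16, above 0 in 11 of 11, so that its level was larger than on captured sites. Most sites of the region were already captured in the deeper B7 libraries, up to 80.2% in that of mitosis, which limits how far a count of captured sites can go. On reads the other baits stood at -0.84 ± 1.00 (B26), 0.07 ± 0.44 (B44), 0.40 ± 0.60 (B53), -1.20 ± 1.18 (B87) and -0.22 ± 0.38 (B118). The B44 level was thus near the curve on reads, above 0 in 6 of 11 libraries, and -0.14 ± 0.32 without the 3 sparse libraries (SD, n = 8).

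**Figure D2:**
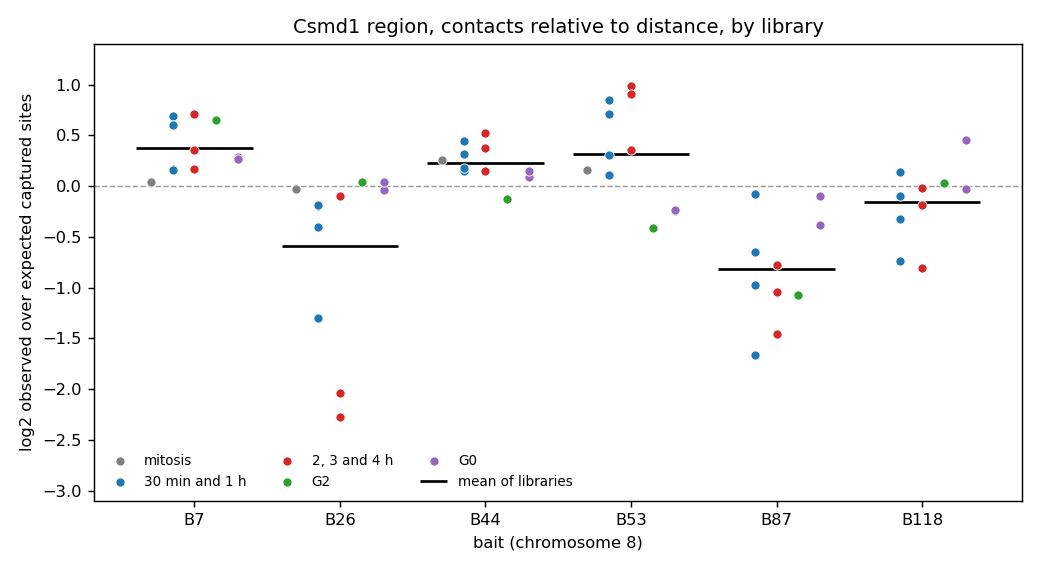
Log2 observed over expected of the Csmd1 region for each bait on chromosome 8 (points, libraries; lines, means), on captured sites (y axis), coloured by library label, against a dashed line at the expected level. All 11 B7 libraries lie above 0 and all 10 B87 libraries below it, and the lowest points are the B26 libraries of 3 h and 4 h at -2.28 and -2.04.

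Within the region, the bins with the highest mean differed between baits. At B7 the bin starting at 16000001 stood at 0.51 ± 0.30 and that at 17500001 at 0.41 ± 0.28, each above 0 in 11 of 11 libraries, while the first bin (15.5 to 16 Mb) stood at 0.04 ± 0.22. At B53 the bin at 17000001 was highest at 0.48 ± 0.57, above 0 in 10 of 11, and the first bin lowest at -0.18 ± 0.35. At B44 the 5 bins ran from 0.06 ± 0.18 (17000001) to 0.23 ± 0.32 (16000001), differences within their spread. At B26 all 5 were negative, -0.82 ± 1.27 (17000001) to -0.47 ± 0.71 (the first bin), as at B87, -0.95 ± 0.73 to -0.61 ± 0.43, and B118, -0.46 ± 0.73 to -0.08 ± 0.38.

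The bins just beyond the limits were lower at B53 than the bins inside, apart from the first. The bin on the centromeric side, starting at 15000001, stood at 0.14 ± 0.25 at B7, 0.18 ± 0.41 at B44 and -0.12 ± 0.49 at B53. The bin on the other side (18 to 18.5 Mb) stood at 0.13 ± 0.34, -0.16 ± 0.49 and -0.25 ± 0.47 at those baits. The first bin, just inside on the centromeric side, differed from its outer neighbour by less than their spread at each of these 3 baits.

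**Figure D3:**
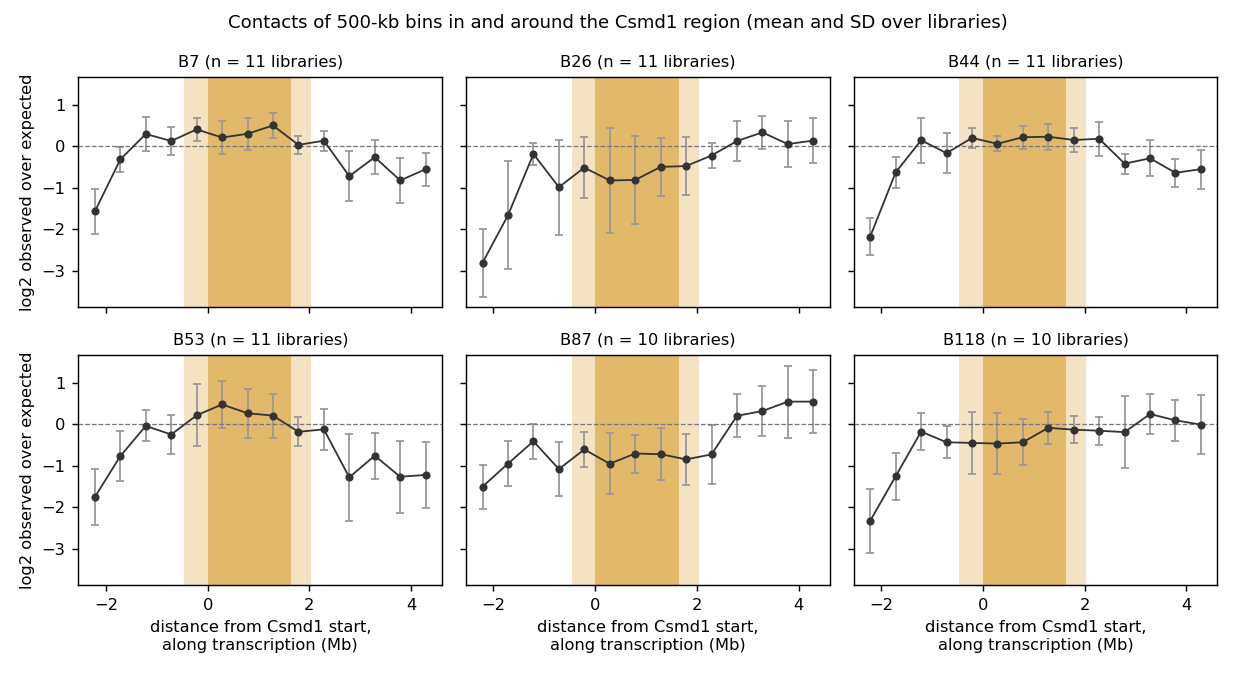
Mean log2 observed over expected captured sites per 500-kb bin (y axis) against distance from the Csmd1 start along its transcription in Mb (x axis), 1 panel per bait; bars are SD over libraries, light shading the region and dark shading Csmd1. B7 and B53 run above 0 in most bins of the region and below it in the gene-rich stretch on the centromeric side, at the right of each panel, except in the bin next to the region at B7 (0.14), and B87 runs below 0 in all 5 bins of the region.

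The 2.5 Mb beside the region on the centromeric side (13 to 15.5 Mb) hold 36 protein-coding genes at 46.2% GC and 698 HindIII sites, against 1 gene at 40.3% GC and 864 sites in the Csmd1 region. This neighbour was chosen after its values were seen, so what follows is a description of these libraries. The expected value takes no account of the number of HindIII sites in a bin, and the region holds more sites than this neighbour. A version per HindIII site was not computed for the differences from stretches beside the region. How much of them comes from site number was not tested. At B53 the Csmd1 region averaged 0.20 over its bins, against -0.93 in the neighbour, a difference of 1.13 ± 0.92, and the region was the higher in 11 of 11 libraries. At B7 the difference was 0.74 ± 0.43 and at B44 0.52 ± 0.19, again higher in 11 of 11 libraries (SD, n = 11 each).

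At the other baits the order turned in most libraries. At B87 the region minus the neighbour was -0.94 ± 0.82, with the region higher in 1 of 10 libraries. At B26 it was -0.71 ± 1.18, higher in 4 of 11, and at B118 -0.31 ± 0.78, higher in 4 of 10. Without the 3 sparse libraries per bait the differences were 0.53 ± 0.26 (B7), 0.42 ± 0.07 (B44), 0.72 ± 0.68 (B53), -0.06 ± 0.25 (B26), -0.55 ± 0.57 (B87) and 0.02 ± 0.63 (B118). So B26 and B118 were close to level without them, and B118 changed sign. What made these libraries sparse was not tested.

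The 1.5 Mb beyond the region on the other side, at 42.1% GC with 21 protein-coding genes, was lower than the region in 10 of 11 libraries at B7, B26 and B44, 11 of 11 at B53, 6 of 10 at B87 and 9 of 10 at B118. The mean differences, region minus this stretch, ran from 0.05 ± 0.23 (B87) to 0.55 ± 0.19 (B53). Its bins differed. The bin at 19000001 was the lowest at all baits but B87, at -1.66 (B26) to -0.31 (B7). The bin at 18500001 stood above the mean of the region's bins at B26, -0.18 against -0.62, and B87, -0.41 against -0.77. The same held at B118, -0.18 against -0.31, and B7 was level, 0.30 against 0.29. B44, 0.15 against 0.18, and B53, -0.04 against 0.20, went the other way. Whether non-unique ends lower this stretch was not tested.

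The series followed contacts through early G1, so the first comparison set 2 to 4 h against 30 min and 1 h. At B7 the region stood at 0.17 (2 h), 0.71 (3 h) and 0.36 (4 h), against 0.69 and 0.60 (30 min) and 0.17 and 0.16 (1 h). At B53 it stood at 0.36, 0.99 and 0.91, against 0.85 and 0.71 (30 min) and 0.10 and 0.30 (1 h). These 3 h and 4 h libraries were the highest at B53, and at B26 they were the lowest. At B26 the region stood at -0.09, -2.28 and -2.04, against -0.41 and -1.30 (30 min) and -0.19 and -0.19 (1 h). At B44 it stood at 0.15, 0.52 and 0.38, against 0.14 and 0.44 (30 min) and 0.31 and 0.18 (1 h). At B87 it stood at -0.77, -1.46 and -1.04, against -0.98 and -1.66 (30 min) and -0.07 and -0.65 (1 h). At B118 it stood at -0.02, -0.80 and -0.19, against -0.73 and -0.32 (30 min) and -0.09 and 0.14 (1 h). The groups overlapped at all 6 baits.

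Over the 6 baits the difference, 2 to 4 h minus 30 min and 1 h, averaged -0.16 ± 0.42 (SD, n = 6), positive at 3 of 6 baits, with p = 0.59375 in an exact two-sided sign-flip permutation test over baits. The smallest p this test can give is 0.03125. The baits ran from -0.95 (B26) to 0.26 (B53). Without the 3 sparse libraries the mean was -0.02 ± 0.17 and the exact p was 0.75.

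Reads in 500-kb bins gave no call in this comparison. edgeR's quasi-likelihood test with Benjamini-Hochberg adjustment called 0 of the 30 bins of the region (5 per bait), against 0% of all 1461 bins. At an unadjusted p under 0.05 it was 1 of 30 bins, against 1.92% of all bins, and DESeq2 also called 0. The libraries of both labels did not overlap in 2 of 30 bins, against 2.67% of all bins. Of the 30, 11 were higher and 19 lower at 2 to 4 h.

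The bin with the smallest p was that of B44 starting at 16500001, in Csmd1. It held 4367, 7252 and 7363 CPM (read counts scaled per library over the tested bins) at 2, 3 and 4 h, against 3056 and 3335 CPM at 30 min and 4310 and 3245 CPM at 1 h. All 3 later libraries were above all 4 earlier ones, the 2 h library by little. Its log2 fold change was 0.86 ± 0.41 (SE), with an edgeR adjusted p of 0.914 and a range of 0.204 to 0.998 over the alternatives.

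The second comparison set G0, cells that left the cycle under serum starvation, against 2 to 4 h. Here baits went in opposite directions. At B53 the region stood at -0.25 and -0.23 in G0, against 0.36 (2 h), 0.99 (3 h) and 0.91 (4 h), with no overlap. At B44 it stood at 0.09 and 0.15 in G0, against 0.15, 0.52 and 0.38, just without overlap. At B26 it stood at -0.03 and 0.04 in G0, against -0.09, -2.28 and -2.04, and at B87 at -0.39 and -0.09, against -0.77, -1.46 and -1.04; G0 was the higher at both with no overlap. At B87 the order was the opposite without the distance curve: as a share of captured far sites the region was lower in both G0 libraries, at 0.307% and 0.242%, against 0.839%, 0.361% and 0.440% at 2, 3 and 4 h. At B7 it stood at 0.28 and 0.26 in G0, against 0.17, 0.71 and 0.36, and at B118 at 0.45 and -0.03, against -0.02, -0.80 and -0.19; these groups overlapped. As a share of captured far sites, B118 was lower in both G0 libraries, at 0.440% and 0.333%, against 0.927%, 0.549% and 0.719%.

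As a share of reads beyond 2 Mb, the region held 0.591% and 0.689% in G0 at B53, against 3.20%, 3.56% and 2.49% at 2, 3 and 4 h. At B44 it held 1.24% and 1.28% in G0, against 2.02%, 2.85% and 2.89%. At B26 it held 5.34% and 4.91% in G0, against 2.42%, 0.385% and 1.01%, and at B7 12.0% and 12.9%, against 10.8%, 6.46% and 6.48%. The B53 and B44 shares were thus lower in both G0 libraries than in any of the 3 later G1 libraries, and the B26 and B7 shares higher. At B87 the region held 0.223% and 0.0559% in G0, against 0.434%, 0.198% and 0.0743%, and at B118 0.202% and 0.0947%, against 0.172%, 0.485% and 0.496%; these groups overlapped. G2, with 1 library per bait, stood beside G0 at B53 (0.565%), B44 (1.04%) and B26 (5.17%). At B7 the G2 library (11.4%) lay between 2 h and G0, nearer to 2 h. Other libraries beside G0 were 1 h replicate 1 at B26, at 4.87%, 1 h replicate 2 at B44, at 1.34%, and mitosis at B26 and B7, at 4.44% and 12.1%.

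**Figure D4:**
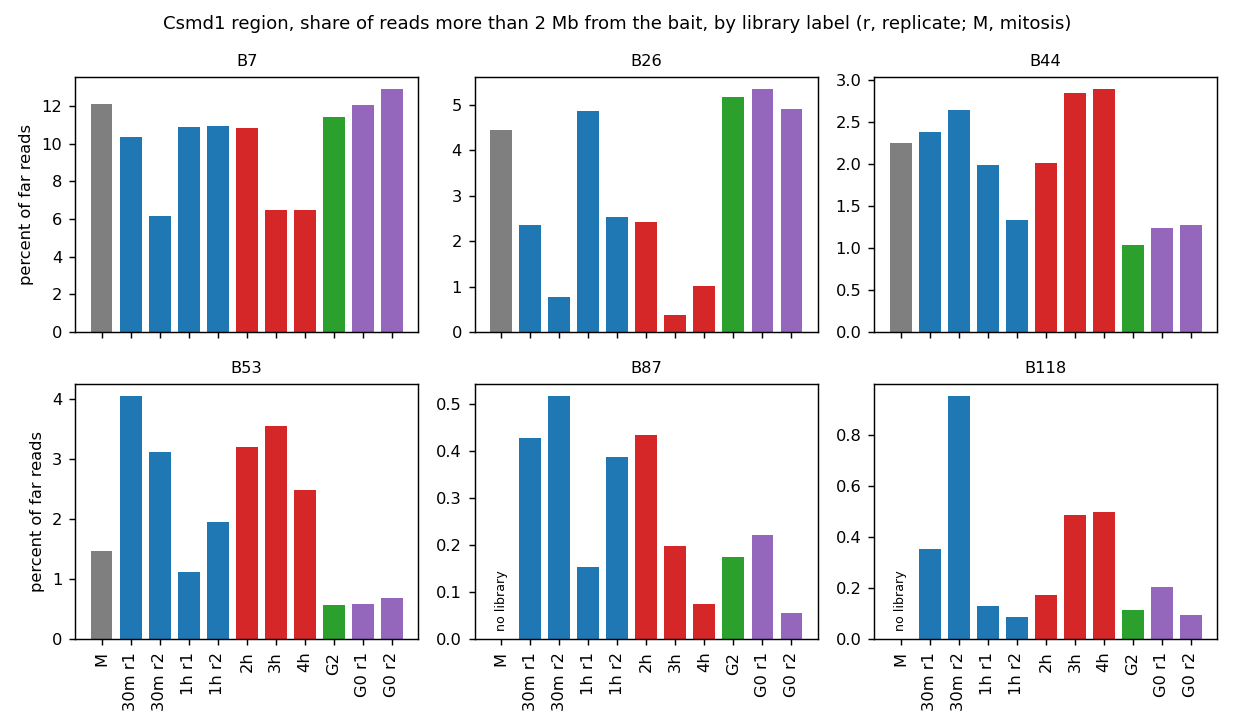
Share of reads beyond 2 Mb from the bait that fell in the Csmd1 region, in percent (bars, single libraries), by library label for each bait; the y axes start at 0 and differ between baits. B7 libraries hold 6.16% to 12.9% and B87 libraries 0.0559% to 0.518%, and at B53 the G2 and G0 bars are the lowest.

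Over the 6 baits, G0 minus 2 to 4 h averaged 0.25 ± 0.88 (SD, n = 6), positive at 3 of 6 baits, with an exact two-sided sign-flip p of 0.5. The differences were -0.99 at B53, -0.23 at B44, -0.14 at B7, 0.55 at B118, 0.85 at B87 and 1.47 at B26. Without 3 h and 4 h, which leaves 2 h alone in its group, B26 was at 0.10, B53 at -0.60, B87 at 0.53 and the mean at 0.05 ± 0.37 (exact p = 0.65625). The B26 difference was thus near 0 once the sparse libraries of 3 h and 4 h were left out, and those at B53 and B87 kept their signs.

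**Figure D5:**
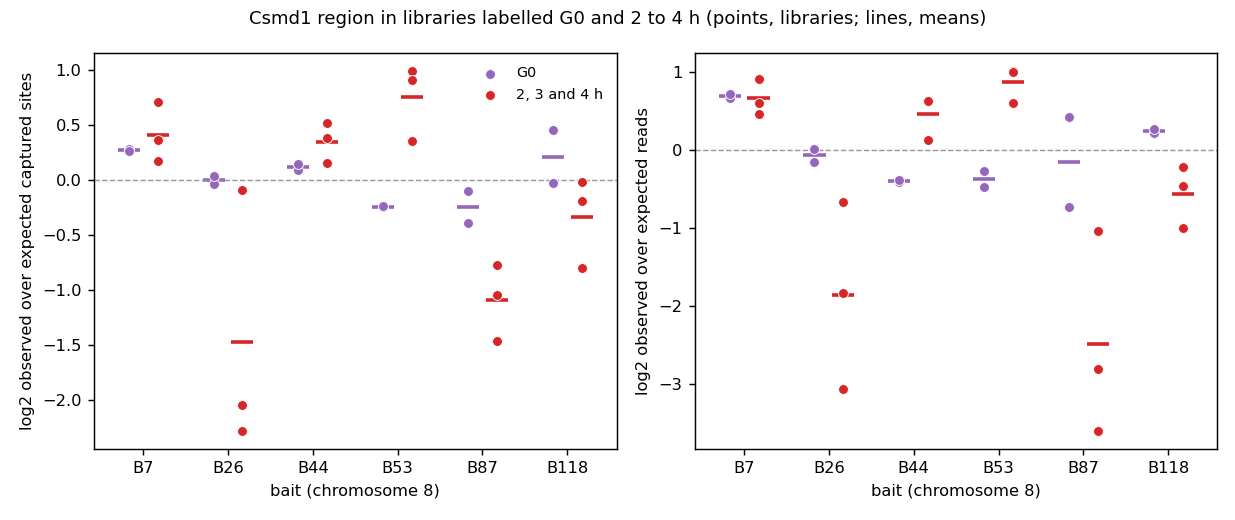
Log2 observed over expected of the Csmd1 region in libraries labelled G0 (left of each pair) and 2, 3 and 4 h (right), for each bait, on captured sites and on reads; points are libraries and lines means. G0 lies below all 3 later G1 libraries at B53 (-0.25 and -0.23 against 0.36 to 0.99) and above them at B26 and B87 on captured sites.

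edgeR called 0 of the 30 bins of the region between G0 and 2 to 4 h, against 0% of all 1461 bins, at an adjusted p of 0.05. At an unadjusted p under 0.05 it was 12 of 30 bins, against 31.3% of all bins. The libraries did not overlap in 20 of 30 bins, against 60.8% of all bins, so neither share sets the region apart. All 5 bins were higher in G0 at B7 (log2 fold changes of 1.81 to 2.83, adjusted p 0.0651 to 0.113) and at B26 (2.12 to 2.98, adjusted p 0.0801 to 0.325). All 5 were lower in G0 at B44 (-1.01 to -0.29, adjusted p 0.164 to 0.678) and at B53 (-2.26 to -0.82, adjusted p 0.0651 to 0.406).

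At these 4 baits the scaling changed the size of the medians and not their sign. When libraries were scaled by their read totals and not by TMM factors, the median of the 5 bins was 0.71 at B7, against 2.42 with TMM, and 2.15 at B26, against 2.78. It was -1.09 at B44, against -0.88, and -2.27 at B53, against -1.88. With TMM the median over all 244 bins of B7 was -0.69. At B87 and B118, 2 of 5 bins were higher in G0 and 3 lower with TMM, and with read totals all 5 were lower at B118.

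The bin with the smallest p was that of B53 starting at 16000001, within Csmd1. It held 1414 and 1316 CPM in G0, against 5517, 5704 and 8445 CPM at 2, 3 and 4 h. Both G0 libraries were below every other B53 library, of which the lowest was G2 at 1592 CPM. Its log2 fold change was -2.26 ± 0.54 (SE) with an edgeR adjusted p of 0.0651. It passed 0.05 under 4 alternatives, among them DESeq2 (-2.36, adjusted p 0.000263), and adjusted p ran up to 0.351 over the others.

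Tests at the scale of the whole region made calls at B7, B26 and B53, and none at B44, B87 and B118. With 1 bin of 2.5 Mb for the region, edgeR gave a log2 fold change in G0 of 2.87 at B7 (adjusted p = 0.0156), 2.73 at B26 (adjusted p = 0.0296) and -2.13 at B53 (adjusted p = 0.0102), and of -0.71 at B44 (adjusted p = 0.0803). At that scale 114 of all 296 bins (38.5%) were called, so these calls do not set the region apart. These fold changes use TMM scaling, and read totals were not tried at this scale. On 500-kb bins scaled by read totals, the edgeR median was 0.71 at B7 (adjusted p 0.114 to 0.783). It was 2.15 at B26 (adjusted p 0.0793 to 0.394) and -2.27 at B53 (adjusted p 0.0451 to 0.235). The B7 share of far reads was 12.0% and 12.9% in G0, against 10.8%, 6.46% and 6.48% at 2, 3 and 4 h. DESeq2 on 500-kb bins called 12 of 30, namely 5 higher at B7, 3 higher at B26 and 4 lower at B53, among 361 of 1436 bins (25.1%). The G0 libraries of B26 replicate 1, B53 replicate 1 and B118 replicate 2 are among those that share captured sites with 1 h replicate 2 and 2 h technical replicate 1. Without any of these libraries the differences on captured sites were 1.63 at B26, -1.09 at B53 and 0.93 at B118, against 1.47, -0.99 and 0.55 with them.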

How the data were processed

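Contacts were measured by 4C-seq, cutting first with HindIII and then with DpnII. The authors deposited raw read counts per HindIII site. The submitters' processing notes name BWA 0.5.9 and mm9; the filters on reads are not given in the sources used here. All 39480 chromosome 8 positions equalled HindIII sites of mm9. Bar codes in the labels were matched to that genome to place the baits, and genes came from GENCODE annotation of the same build. The 39 columns of chromosome 16 and 17 baits and of 1.5 h were not used. The 2 h technical replicates were summed. Whether cultures were shared between baits is not stated, so p-values cover only the spread among baits and among libraries.

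Captured sites (1 read or more) beyond 2 Mb were summed in 500-kb bins with at least 50 HindIII sites, after thinning each bait's libraries to 682 to 2921 sites (10 draws). The expected value came from a lowess (span 0.5) of captured sites times distance on log10 distance, and log2 ratios used a pseudocount of 0.5. Ends were called unique where their 30 bases occurred once among the HindIII ends of mm9. Reads in bins were tested with edgeR 4.0.16 (TMM, filterByExpr, robust glmQLFit and glmQLFTest in R 4.3.3), 1 fit per bait over its libraries, with Benjamini-Hochberg adjustment over 1461 bins of 6 baits at 0.05. DESeq2 1.42.0 was an alternative. CPM values are scaled by TMM. The Python version was 3.11.15, with pandas 2.3.3, statsmodels 0.14.6, scipy 1.17.1 and numpy 2.4.6.

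Sites named were the 5 captured in most libraries and, per bait, the one with most reads; bins named were all 5 of the region and, where none passed, the one with the smallest p per contrast. The region and these rules were chosen with earlier results of these data known. On simulated data for 2 to 4 h versus 30 min and 1 h (1460 bins), edgeR called 7.5% of 2-fold, 72.2% of 4-fold and 100% of 16-fold changes, and 3.48% of 115 calls were false. The spread simulated was the same at every bait and below that estimated at any of them.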

Additional observations from a re-analysis of the deposited data

Results flagged for a closer look

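In the B7 libraries of 30 min and 1 h, the share of far reads in the Csmd1 region was 6.16% in 30 min replicate 2, far from the other 3 libraries at 10.4% to 10.9%. This library was one of the 3 with the fewest far sites at that bait. Such gaps were looked for in 12 groups, and chance gives one in about 1 in 20 groups.

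Between G0 and 2 to 4 h, in log2 observed over expected, every G0 library stood above every later G1 library at B26 and B87 and below all of them at B44 and B53. The nearest pair at B26 was -0.03 in G0 replicate 1, against -0.09 at 2 h. At B87 the share of captured far sites went the other way, at 0.307% and 0.242% in G0, against 0.361% to 0.839%. The difference in log2 observed over expected at B26 exceeded that at B53 by 2.46 and that at B44 by 1.70. The difference at B87 exceeded that at B53 by 1.84 and that at B44 by 1.08. These gaps between baits were not tested. Without the sparse libraries of 3 h and 4 h the differences were 0.10 at B26, 0.53 at B87, -0.60 at B53 and -0.03 at B44.

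All 39 columns left out held more than 3 reads in the region. They captured a median of 24 of its sites and at least 3. The column labelled 2 h replicate 2 of the chromosome 16 bait B48 captured 515 of them with 29626 reads, and 74.1% of its 2813671 reads lay on chromosome 8. The next highest of these columns captured 126 sites.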

How the results depend on the processing

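Of 311 alternatives over 26 results, 291 counted as kept. Values with a test had to keep direction and side of the threshold. Levels and differences with no test had to stay within their spread. Counts of called bins and medians of captured sites had to be equal or within a set ratio. For the levels by bait and the differences from the neighbour, that spread was the SD over libraries. Leaving out a single library cannot shift a mean that far, so those leave-one-out alternatives could not count as moved. The limit is also wide: the B26 level of -0.59 counted as kept at -0.11 without the 3 sparse libraries. Alternatives without the 3 sparse libraries, without the G0 replicates that share sites, and those on the neighbouring 2.5 Mb were chosen after seeing the data. Reads in place of captured sites moved B7 to 0.70, and to 0.67 with reads capped per site, and the difference from the neighbouring 2.5 Mb to 1.18 at B7, 0.82 at B44, 1.91 at B53, -1.49 at B26, -1.69 at B87 and -0.65 at B118. That difference reversed at B118 to 0.019 without 30 min replicate 2, 3 h and 4 h. For G0 against 2 to 4 h, the count of called bins was 0 of 1461. It became 361 of 1436 (25.1%, 132 higher) with DESeq2 and 114 of 296 (38.5%, 41 higher) with 2.5-Mb bins. It was 60 (7 higher) with read totals and 221 (97 higher) with captured sites. In the region the count became 12 of 30 with DESeq2 and 3 of 6 with 2.5-Mb bins. There it was 1 of 30 with read totals and 8 of 30 with captured sites, for which no share over all bins is given. The cause of these changes in count was not tested.

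Leaving out 1 library gave 0 to 233 calls in all and 0 to 6 in the region, the highest without 2 h. No share over all bins is given for these counts. For 2 to 4 h against 30 min and 1 h it gave 0 to 30 calls, 30 of them without 2 h (5 higher), and 0 in the region. It gave means of -0.25 to -0.08 for the first difference and 0.17 to 0.35 for G0. By bait it gave 0.34 to 0.41 (B7), -0.65 to -0.42 (B26), 0.20 to 0.26 (B44), 0.25 to 0.39 (B53), -0.90 to -0.73 (B87) and -0.22 to -0.09 (B118). For the region minus its neighbour it gave 0.65 to 0.78, -0.81 to -0.48, 0.48 to 0.54, 0.98 to 1.23, -1.07 to -0.79 and -0.45 to -0.17 at those baits. The B53 bin at 16000001 stood at -2.65 with read totals, -1.06 with captured sites and -2.37 without 2 h, past the threshold in each.

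Deviations of samples with the same replicate number correlated at -0.53 to 0.44, with both signs among the baits. Whether the numbers mark shared cultures or runs was not tested. With the replicate block edgeR made 0 calls in both comparisons, with 21 and 382 bins at an unadjusted p under 0.05. With replicate 1 only in both groups, as a block on the numbers, the means over baits were -0.21 (exact permutation p = 0.46875) and 0.26 (exact permutation p = 0.5). Few captured sites limit the values of 30 min replicate 2, 3 h and 4 h and, in the region, those of B87. The biological coefficient of variation was 0.51 to 0.88 over the baits. The simulation used a lower value, the same at every bait, so its share of 2-fold changes called (7.5%) does not carry over to these libraries.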
